A study of Mus musculus with 2 samples.

Results

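The 9 genes followed here make up a group of NADPH oxidase and antioxidant genes: *Cybb*, *Cyba*, *Ncf1*, *Ncf4* and *Rac2* for the oxidase, and *Sod1*, *Sod2*, *Cat* and *Nfe2l2* for the defence against its products. They were chosen by name and are 9 of 55386 features counted in both libraries, and each was detected in both. The cells were CD45+ cells of the aortic adventitia, the outer layer of the vessel wall, from RankCreRosa26eYFP mice aged 16 weeks. One library came from 3 untreated animals (steady state), the other from 2 animals given Angiotensin II (AngII), a peptide that raises blood pressure, at 1.8 µg/kg/min from osmotic pumps for 10 days. Both groups carried the same alleles: Cre made from the *Rank* gene and a *Rosa26* reporter that, once recombined, makes eYFP in the cell and in its descendants. The animals of a condition were pooled, so each condition has 1 library and no replicate. No test between animals could be made, and condition and library cannot be told apart.

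Phagocytes carry an NADPH oxidase that passes electrons from NADPH to oxygen and so makes superoxide. *Cybb* encodes its catalytic chain (gp91phox) and *Cyba* the partner chain (p22phox) in the membrane. *Ncf1* (p47phox) and *Ncf4* (p40phox) encode cytosolic subunits that join the membrane chains on activation, together with the small GTPase *Rac2*. Superoxide is turned into hydrogen peroxide by superoxide dismutases, of which *Sod1* is cytosolic and *Sod2* mitochondrial, and catalase (*Cat*) breaks the peroxide down. *Nfe2l2* encodes NRF2, a transcription factor that binds antioxidant response elements and drives many antioxidant genes. The oxidase of macrophages and vessel wall cells has long been studied in AngII hypertension.

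Positions count from 1 on GRCm38 and come from GENCODE M21, whose identifiers and versions match the deposited matrix for all 9 genes. *Cybb* (ENSMUSG00000015340.10) lies at chrX:9435252-9487771, *Cyba* (ENSMUSG00000006519.11) at chr8:122424776-122432930 and *Ncf1* (ENSMUSG00000015950.13) at chr5:134220053-134229625. *Ncf4* (ENSMUSG00000071715.12) lies at chr15:78244801-78262580 and *Rac2* (ENSMUSG00000033220.7) at chr15:78559167-78572783. *Sod1* (ENSMUSG00000022982.10) lies at chr16:90220754-90226329, *Sod2* (ENSMUSG00000006818.5) at chr17:13006846-13040063, *Cat* (ENSMUSG00000027187.10) at chr2:103453849-103485160 and *Nfe2l2* (ENSMUSG00000015839.6) at chr2:75675513-75704641. All are protein-coding. *Cyba*, *Ncf1* and *Sod1* overlap a protein-coding gene on the other strand (*Gm20388*, *Gtf2ird2* and *Scaf4*), and *Nfe2l2* a small nuclear RNA gene on its own strand (*Gm24996*).

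RefSeq promoters on GRCm38.p6 were found for 7 of the 9 genes, all but *Ncf4* and *Rac2*. They were searched on both strands for GAGGAA, the core of sites of the myeloid factor PU.1, and for TGACNNNGC, the core of the antioxidant response element. The promoters of *Cybb*, *Cyba* and *Ncf1* are shown because the levels of these 3 subunits went together across the 13 larger cell classes correlated below. That of *Nfe2l2* is shown because it holds the antioxidant core. Each runs 5′ to 3′ from 250 bases before the start to 30 bases after it, with GAGGAA and TGACNNNGC matches in capitals. *Cybb* is chrX:9469295-9469574, *Cyba* chr8:122432911-122433190, *Ncf1* chr5:134229596-134229875 and *Nfe2l2* chr2:75704634-75704913, all on the minus strand. The *Cybb* stretch lies inside the GENCODE span given above, so its RefSeq start is not the outer end of that span.
Cybb: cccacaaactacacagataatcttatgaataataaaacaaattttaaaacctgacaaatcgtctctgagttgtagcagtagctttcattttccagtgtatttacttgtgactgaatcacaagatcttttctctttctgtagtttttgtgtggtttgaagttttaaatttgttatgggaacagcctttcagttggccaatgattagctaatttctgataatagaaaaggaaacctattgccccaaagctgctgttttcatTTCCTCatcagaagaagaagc
Cyba: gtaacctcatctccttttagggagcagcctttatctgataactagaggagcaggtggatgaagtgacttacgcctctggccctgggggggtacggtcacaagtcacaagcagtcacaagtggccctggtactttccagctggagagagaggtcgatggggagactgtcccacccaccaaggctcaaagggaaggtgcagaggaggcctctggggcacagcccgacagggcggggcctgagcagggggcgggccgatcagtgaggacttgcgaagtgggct
Ncf1: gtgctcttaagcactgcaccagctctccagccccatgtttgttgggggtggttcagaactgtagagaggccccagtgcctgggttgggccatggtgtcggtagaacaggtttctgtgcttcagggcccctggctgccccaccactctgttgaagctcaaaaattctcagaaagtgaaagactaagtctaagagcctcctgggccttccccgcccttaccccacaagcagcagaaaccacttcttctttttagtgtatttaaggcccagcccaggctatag
Nfe2l2: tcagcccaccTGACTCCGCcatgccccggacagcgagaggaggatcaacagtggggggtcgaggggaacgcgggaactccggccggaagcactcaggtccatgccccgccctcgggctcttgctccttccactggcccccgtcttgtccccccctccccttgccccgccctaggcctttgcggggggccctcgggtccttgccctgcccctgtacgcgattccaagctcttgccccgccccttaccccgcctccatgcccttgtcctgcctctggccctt
In 300-base promoters, GAGGAA was found in *Cybb*, *Sod2* and *Cat*, 3 of 7, and in 28.3% of all 32851 promoters. The match in *Cybb* begins at base 10 after the start and reads on the other strand. TGACNNNGC was found in *Sod1*, 56 bases before the start, and in *Nfe2l2*, 240 bases before it, 2 of 7, and in 12.4% of all promoters. The 2 cores do not overlap in these promoters. A match is a description of the letters and no evidence of binding.

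The libraries differed in depth. The steady-state matrix held 346 barcodes and 4009678 unique molecular identifiers (UMIs, each a captured transcript molecule), and the AngII matrix 4419 barcodes and 20481854 UMIs. The filter left 306 and 4198 cells with medians of 9105 and 1092 UMIs, and no barcode was shared. Cells were classed by lists of marker genes that hold none of the 9 genes, and a name such as T cell stands for cells that carry those markers (T cell-like). In the steady-state library, 142 cells were macrophages, 50 B cells and 37 T cells. In the AngII library, 2142 were macrophages, 359 neutrophils, 334 T cells, 300 classical monocytes, 255 cDC1, 128 B cells and 125 cDC2. Macrophages were split into resident (*Lyve1*, *Folr2*, *Cd163*) and other macrophages. The 25 other macrophages of the steady state were mostly type-2 (*Retnla*, *Lyz1*; 19 cells), while the 1481 on AngII were 318 reparative (*Spp1*, *Arg1*), 254 type-2 and 909 without a subset. In the AngII library 401 cells had no class and 14 tied between classes. With macrophage subsets merged, assigning classed cells by their whole profile gave the same class for 95.7% of steady-state and 83.5% of AngII cells. With the subsets kept apart it was 95.4% and 66.3%, so the AngII subset values rest on a less stable split. With 1 marker fewer, 2 of 37 steady-state T cells would have lost or changed their class, and on AngII 91 of 334 T cells, 127 of 255 cDC1, 77 of 125 cDC2, 147 of 300 classical monocytes, 129 of 359 neutrophils and 42 of 128 B cells. Among AngII macrophages it was 264 of the 909 without a subset, 40 of 318 reparative, 16 of 254 type-2 and 25 of 661 resident cells. Steady-state cDC2 cells were led by *Cd209a* and also by cell-cycle genes such as *Top2a*, and AngII B cells also by antibody genes of plasma cells (*Ighg2c*, *Jchain*).

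Levels are summed UMIs of a gene in a class per 1000000 UMIs of that class (CPM), followed by an exact 95% Poisson interval where 2 bounds are given. Ratios carry exact conditional 95% intervals. All intervals cover counting error only, neither the spread between animals nor that between cells. A ratio of at least 2 or at most 0.5 is called past 2-fold, and beside each count stands the percent of all genes with at least 50 UMIs over both groups that went past 2-fold in the same direction.

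*Cybb*, the catalytic chain, was highest in monocytes in both libraries. At steady state it stood at 1734 CPM (1537 to 1949) in 11 classical and 1378 CPM (1212 to 1560) in 14 nonclassical monocytes. Resident macrophages had 532 CPM (493.8 to 572.7), other macrophages 456 CPM (402.3 to 515.5), cDC2 222 CPM (173.3 to 280.9) and B cells 186 CPM (139.9 to 241.7). It was nearly absent from 11 cDC1 (12.6 CPM, 3 UMIs) and 37 T cells (6.40 CPM, 2 UMIs), and 8 type-2 innate lymphoid cells (ILC2) held no UMI, where the floor of 3 UMIs is 48.2 CPM. The intervals of B cells and cDC2 overlapped, as did those of cDC1 and T cells.

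On AngII monocytes again held most *Cybb*, with 1264 CPM (1081 to 1469) in 27 nonclassical and 747 CPM (706.7 to 787.9) in 300 classical monocytes, here with the nonclassical cells above the classical. The macrophage subsets lay close together, with 487 CPM in reparative macrophages, 476 in the 909 without a subset, 469 in resident and 413 in type-2 macrophages, and the intervals of the first 3 overlapped. B cells had 388 CPM (336.0 to 445.9), neutrophils 258 CPM (225.2 to 295.2) and cDC2 245 CPM (220.4 to 270.6). Migratory dendritic cells (78.9 CPM), T cells (66.1 CPM) and cDC1 (63.4 CPM) were the lowest classes with over 25 cells, with overlapping intervals. In cDC1, 1 of 255 cells held 32 of the 105 *Cybb* UMIs, and in T cells 1 of 334 held 22 of 90. The 13 natural killer (NK) cells held none, where the floor of 3 UMIs is 41.5 CPM.

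A *Cybb* UMI was found in 94.4% of steady-state macrophages and 5.41% of T cells, at median depths of 10701 and 8087 UMIs. On AngII the shares were 50.0% and 11.1%, at 1157.5 and 1046 UMIs. With every cell thinned to 1000 UMIs, the shares were 41.4% of 140 macrophages and 0% of 37 T cells at steady state, and 35.4% of 1236 and 5.03% of 179 on AngII. Thinning left out 2 macrophages and no T cell at steady state, and 906 and 155 on AngII. Macrophages stood above T cells in both libraries. Whether the *Cybb* UMIs of T cells were their own transcripts or free RNA was not tested.

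*Cyba*, the partner chain, was found more widely. At steady state it ranged from 249 CPM (197.2 to 311.3) in T cells through 770 CPM (724.0 to 818.8) in resident macrophages to 1548 CPM (1447 to 1654) in other macrophages and 1749 CPM (1561 to 1953) in nonclassical monocytes. cDC1, with almost no *Cybb*, held 627 CPM of *Cyba* (530.3 to 736.0). On AngII T cells held 611 CPM (569.9 to 653.6) and classical monocytes 1942 CPM (1877 to 2008). Migratory dendritic cells, low in *Cybb*, had 1924 CPM of *Cyba* (1777 to 2079), and their interval overlapped those of both monocyte classes.

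The cytosolic subunits each had an order of their own. *Ncf1* was highest in neutrophils on AngII, at 480 CPM (434.2 to 529.1), above resident (247 CPM, 231.0 to 264.4) and reparative macrophages (246.5 CPM, 226.2 to 268.1). Nonclassical monocytes, rich in *Cybb*, had 89.2 CPM of *Ncf1* (46.1 to 155.8) on AngII and 72.0 CPM (38.3 to 123.0) at steady state, against 205 CPM (181.0 to 230.2) in steady-state resident macrophages. The ratio of nonclassical monocytes to macrophages was not among the planned comparisons, and 6 of the 13 steady-state UMIs came from 1 cell. *Ncf4* was highest in classical monocytes, at 228 CPM (160.7 to 314.6) at steady state and 274 CPM (249.7 to 299.1) on AngII. Its level in macrophages was 84.0 CPM (71.5 to 98.1) at steady state and 152 CPM (144.5 to 160.5) on AngII. T cells had 12.8 CPM of *Ncf4* (4 UMIs) and 51.4 CPM.

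*Rac2* ran the other way, with its highest levels in lymphocytes, plasmacytoid dendritic cells (pDC) and neutrophils. At steady state T cells had 726 CPM (634.5 to 826.7) and B cells 669 CPM (578.7 to 768.5), with overlapping intervals, against 193 CPM (173.9 to 213.9) in macrophages and 126 CPM (85.2 to 180.2) in cDC1. On AngII, 13 NK cells had 1163 CPM (927.8 to 1440.0), 11 pDC 1154 CPM (897.7 to 1460.0), neutrophils 784 CPM (724.8 to 845.8), T cells 633 CPM and B cells 624 CPM, against 277 CPM in macrophages. Migratory dendritic cells were lowest, with 63.7 CPM (39.4 to 97.4).

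**Figure D1:**
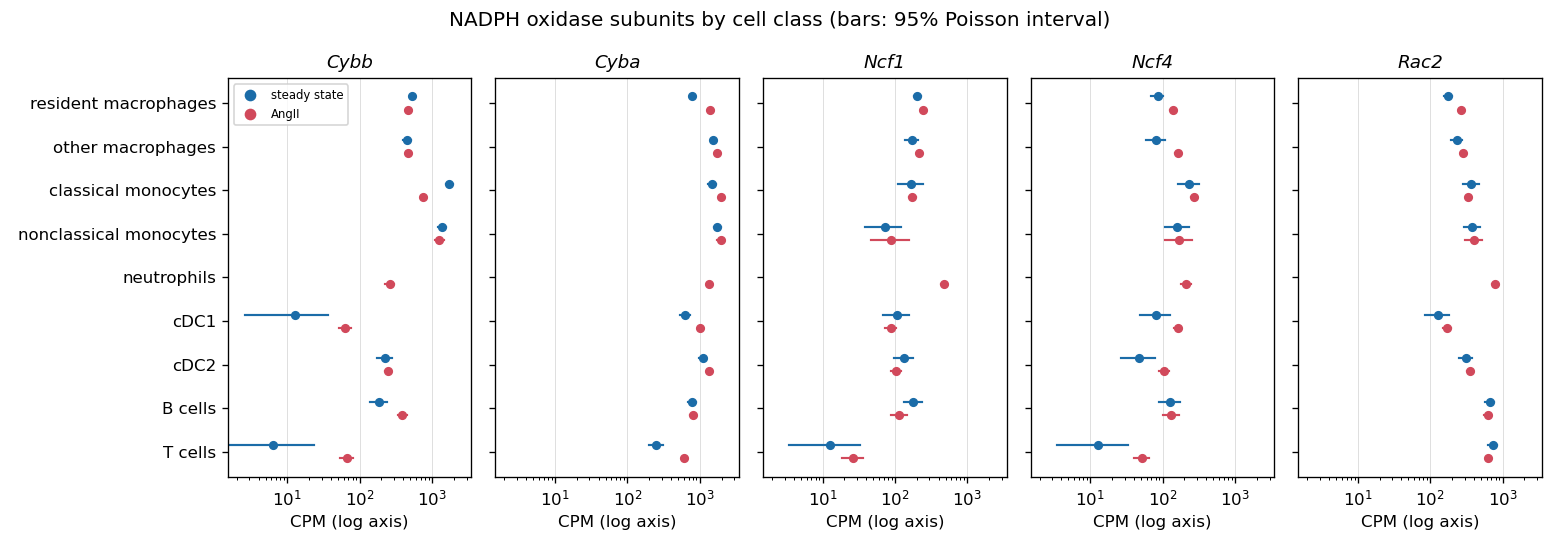
Level of the 5 oxidase genes in CPM (log axis) in 9 cell classes, with steady state in blue and AngII in red. Points are summed levels of 1 library and bars exact 95% Poisson intervals; classes under 10 cells in a library are left out, and the steady-state T cell bar of *Cybb* runs past the left edge. *Cybb* runs from 6.40 CPM in steady-state T cells to 1734 CPM in classical monocytes, while *Rac2* is highest at the T cell, B cell and neutrophil rows.

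*Sod1* was highest in conventional dendritic cells among classes with at least 10 cells at steady state and 50 on AngII. The cDC1 had 286 CPM (222.2 to 362.7) at steady state and 223 CPM (201.1 to 247.3) on AngII, and cDC2 251 CPM (198.6 to 312.7) and 170 CPM (149.6 to 191.5). Macrophages had 150 CPM (133.2 to 168.6) and 119 CPM (111.9 to 126.1), and B cells were lowest of the larger classes, with 91.2 CPM (60.1 to 132.7) and 54.6 CPM (36.3 to 78.9). At steady state the intervals of both dendritic cell classes overlapped.

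*Sod2* varied less between classes. At steady state, in classes of at least 10 cells, it lay between 50.5 CPM in cDC1 and 136 CPM in classical monocytes, and the intervals of these extremes overlapped (26.1 to 88.2 and 85.1 to 205.5). On AngII it was highest in reparative macrophages, at 157 CPM (141.0 to 174.5), where 1 of 318 cells held 57 of 346 UMIs, and in classical monocytes, at 145 CPM (127.8 to 163.9). cDC2 were lowest of the classes over 50 cells, at 68.5 CPM (56.0 to 82.9).

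*Cat* was sparse everywhere, at 57.2 CPM (47.0 to 69.0) in steady-state and 53.7 CPM (49.1 to 58.6) in AngII macrophages. On AngII neutrophils (26.2 CPM, 16.4 to 39.7) and classical monocytes (28.9 CPM, 21.5 to 38.0) were lowest of the classes over 50 cells, and T cells (68.3 CPM, 55.1 to 83.6) and resident macrophages (65.0 CPM, 56.8 to 74.0) highest, with overlapping intervals.

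*Nfe2l2* was highest in monocytes and, on AngII, in neutrophils. Nonclassical monocytes had 376 CPM (292.3 to 477.1) at steady state and 401 CPM (301.6 to 523.8) on AngII. Classical monocytes had 333 CPM (250.3 to 434.7) and 254 CPM (230.8 to 278.4), and AngII neutrophils 366 CPM (325.8 to 408.9). Of the 54 steady-state UMIs in classical monocytes, 23 came from 1 cell. Resident macrophages had 196 CPM (172.6 to 220.7) and 212 CPM (197.2 to 228.1). Dendritic cells lay lower, with 79.9 CPM (48.1 to 124.8) and 83.3 CPM (70.0 to 98.4) in cDC1, and the cDC1 intervals overlapped those of T cells (54.4 CPM, 31.7 to 87.0, and 104 CPM, 87.8 to 122.8). B cells were low in both libraries, at 23.6 CPM (9.50 to 48.7) and 68.3 CPM (47.5 to 94.9).

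**Figure D2:**
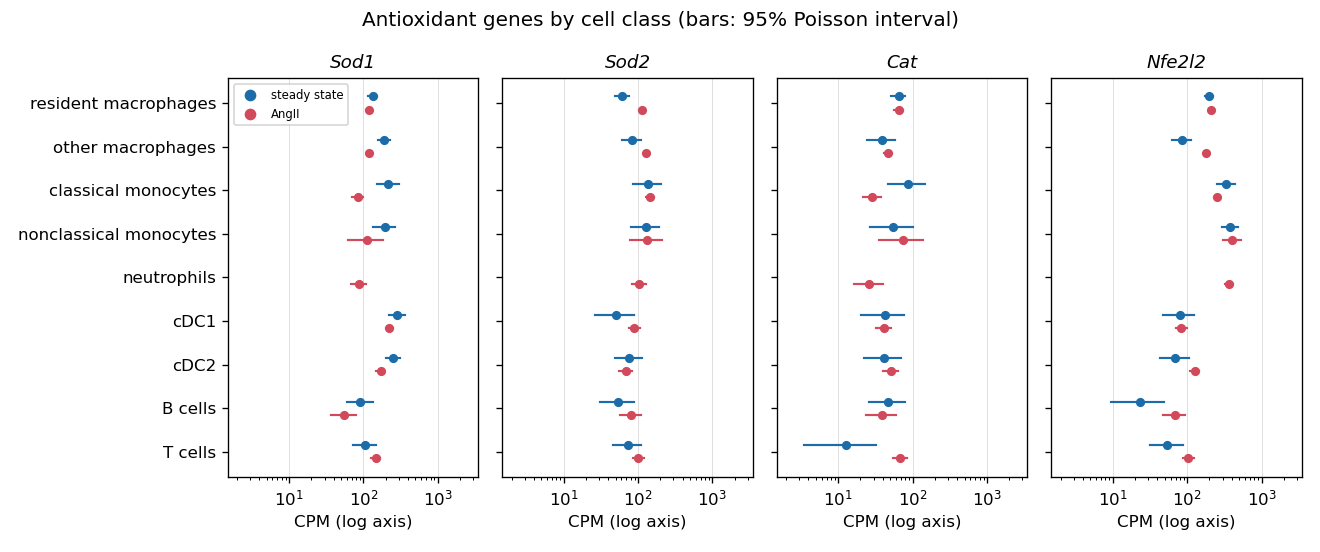
Level of *Sod1*, *Sod2*, *Cat* and *Nfe2l2* in CPM (log axis) in 9 cell classes, with steady state in blue and AngII in red, points and 95% Poisson bars for 1 library each; classes under 10 cells are left out. *Nfe2l2* spans from 23.6 CPM in steady-state B cells to 401 CPM in AngII nonclassical monocytes, while *Cat* stays under 100 CPM in every class shown.

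The 9 genes were also set against each other across 13 classes (at least 20 cells at steady state, 50 on AngII) by Pearson's r of log2(CPM + 10). These are descriptions, since classes of a library share its depth and free RNA. The classes compared leave out steady-state monocytes and AngII nonclassical monocytes, which had the highest *Cybb*. In nonclassical monocytes, *Cybb* was high and *Ncf1* low, so the values below do not cover that split. *Cyba* and *Ncf4* gave 0.88, *Cybb* and *Ncf1* 0.82 and *Cybb* and *Cyba* 0.82, while *Rac2* gave negative values with the other 4 subunits, from -0.47 with *Cyba* to -0.29 with *Ncf1*. Among 8450 genes with at least 200 UMIs, those most like *Cybb* included *Rhoq* (0.943) and *Map1lc3a* (0.941). Those most like *Cyba* were *Ctsz*, *Ctss* and *Prkcd* (0.955 to 0.966), and those most like *Ncf1* *Iqgap1*, *Rnf19b* and *Dazap2* (0.95 to 0.967). Those most like *Ncf4* included *Lyn* (0.916) and *Fam20b* (0.899). For *Rac2* they were *Arfrp1*, *Fam107b* and *Dusp2* (0.923 to 0.939). *Sod1* was nearest to *Cyb5a* (0.871), *Ncaph2* and *Tbca*, *Sod2* to *Aprt* (0.921), *Thbs1* and *Spp1*, and *Cat* to *Wdr11* (0.878), *Mrps31* and *Drg2*. *Spp1* is a marker of the reparative class, so its profile over the classes was partly set by the gate. *Nfe2l2* was nearest to *Rsad2*, *Arrdc4* and *Cln3* (0.956 each).

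Macrophages held more of 4 oxidase genes than T cells in both libraries. At steady state *Cybb* was 79.7 times (22.0 to 659) the T cell level, *Ncf1* 15.2 times (5.88 to 56.0), *Ncf4* 6.57 times (2.51 to 24.4) and *Cyba* 4.01 times (3.20 to 5.10). *Cat* (4.47 times, 1.70 to 16.7) and *Nfe2l2* (2.99 times, 1.84 to 5.2) were also past 2-fold, and *Rac2* was at 0.266 times (0.225 to 0.315). So 6 of the 9 were at least 2-fold higher, against 31.9% of 5801 genes, and 1 at least 2-fold lower, against 10.3% (42.3% in either direction). The T cell values behind *Cybb*, *Ncf1*, *Ncf4* and *Cat* are 2 to 4 UMIs.

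On AngII the same oxidase genes were 7.07 (*Cybb*, 5.74 to 8.81), 8.52 (*Ncf1*, 6.13 to 12.2), 2.96 (*Ncf4*, 2.33 to 3.83) and 2.65 times (*Cyba*, 2.47 to 2.84) the T cell level, and *Rac2* 0.438 times (0.405 to 0.473). *Nfe2l2* was at 1.85 times (1.56 to 2.21) and *Cat* at 0.786 times (0.629 to 0.992), which turned to 1.65 times with cells thinned to 1000 UMIs. That makes 4 of 9 higher, against 22% of 9944 genes, and 1 lower, against 17.4% (39.4% in either direction). The 9 general macrophage markers (*C1qa*, *Csf1r*, *Adgre1* and others) summed to 41.6 CPM in steady-state T cells, 0.249% of their level in macrophages, with 4 of 9 at 0. In AngII T cells they summed to 666 CPM, 4.89%, with none at 0. *Cybb* in T cells was 1.25% and 14.1% of its macrophage level. In T cells without a C1q UMI, 30 of 37 and 125 of 334 cells, the *Cybb* ratios were 134 and 38.8. No interval was computed for these, and at most 2 steady-state T cell *Cybb* UMIs lie behind the first. The filter took out a larger share of T cells on AngII and left macrophages as they were. The depth of the T cells left was not compared.

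Of the other NADPH oxidase genes, *Rac1*, the wider relative of *Rac2*, stood at 430 CPM in steady-state macrophages and 163 CPM in T cells (2.64, 1.99 to 3.57), and at 455 and 239 CPM on AngII (1.90, 1.70 to 2.13). The epithelial oxidase genes *Duox1*, *Duox2* and *Nox3* had no UMI in either library, and *Nox4*, known from the vessel wall, had 5 at steady state and none on AngII.

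Set against AngII macrophages, the other classes each had a combination of their own. In neutrophils *Rac2* was 2.83 times (2.59 to 3.08) and *Ncf1* 2.13 times (1.91 to 2.37) the macrophage level, while *Cybb* was 0.553 times (0.481 to 0.634) and *Cat* 0.488 times (0.303 to 0.747). That is 2 of 9 genes at least 2-fold higher, against 8.6% of all genes, and 1 lower, against 16.9%. With each cell given equal weight *Ncf1* did not reach 2-fold (1.77) and *Cat* was at 0.894. *Nfe2l2* stood at 1.90 times (1.68 to 2.14). Without cells that held markers of a second lineage the *Cybb* ratio was 0.149.

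In cDC1, 3 of 9 genes were at least 2-fold lower, against 20.4% of all genes, and none was at least 2-fold higher, against 6.91%. These were *Cybb* (0.136 times, 0.111 to 0.165), *Ncf1* (0.386, 0.324 to 0.457) and *Nfe2l2* (0.433, 0.361 to 0.515). The interval of *Ncf4* held 1 (1.06, 0.925 to 1.21) and *Sod1* was 1.88 times as high (1.67 to 2.12). The *Cybb* ratio stayed past 2-fold in all 10 alternatives, between 0.0497 and 0.351, and *Ncf1* in 8 of 10.

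In cDC2 only *Ncf1* was past 2-fold, at 0.467 times (0.395 to 0.548), which is 1 of 9 lower against 14% of all genes, with none higher against 5.22%. *Cybb* stood at 0.524 (0.470 to 0.582), *Sod2* at 0.559 and *Sod1* at 1.43. *Ncf1* stayed past 2-fold in 5 of 10 alternatives. The cDC2 were deeper than the rest of the library, with a median of 13670 UMIs.

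B cells had 2.25 times (2 to 2.53) the *Rac2* of macrophages, but 0.355 times (0.246 to 0.495) the *Nfe2l2* and 0.459 times (0.304 to 0.668) the *Sod1*. That is 1 of 9 higher, against 9.21%, and 2 lower, against 25.7%. *Cybb* was near the macrophage level, at 0.831 times (0.717 to 0.958), and 0.534 times without cells holding markers of a second lineage.

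In classical monocytes none of the 9 was past 2-fold in either direction, against 2.72% higher and 10.5% lower of all genes. *Ncf4* (1.80 times, 1.62 to 1.99) and *Cybb* (1.60 times, 1.5 to 1.70) were the highest, and *Cat* (0.538, 0.395 to 0.719) and *Sod1* (0.700, 0.586 to 0.833) the lowest. Without cells that also held markers of a second lineage, which left 71 of 300, *Ncf4* was at 2.18 and *Ncf1* at 0.257.

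**Figure D3:**
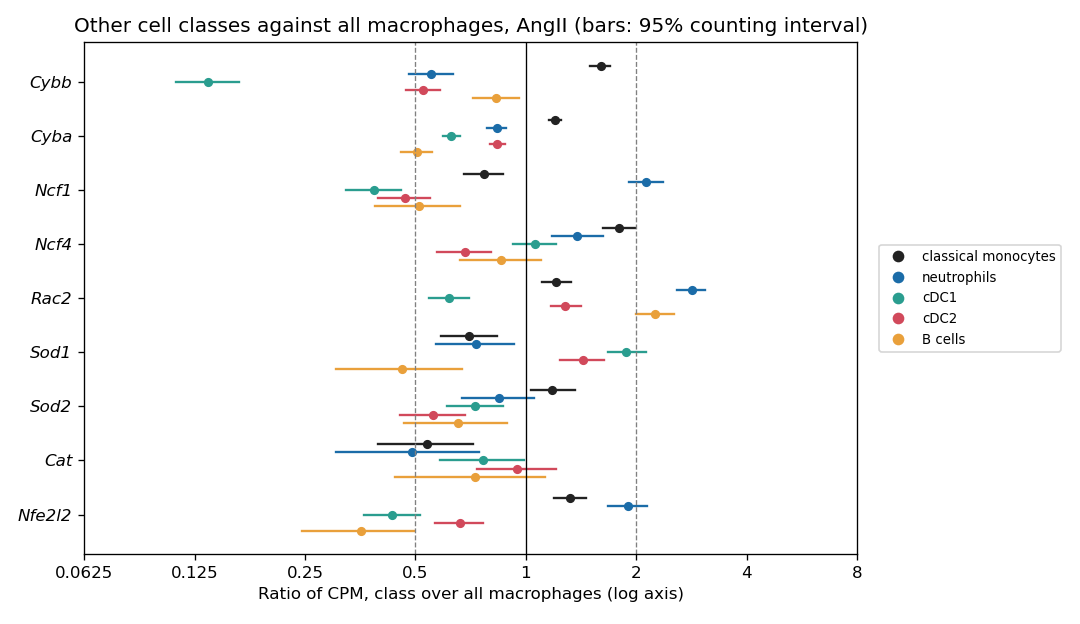
Ratio of CPM in 5 AngII cell classes over that in all AngII macrophages (log axis) for the 9 genes, with 95% counting intervals as bars and dashed lines at 0.5 and 2. The cDC1 point of *Cybb* lies lowest, at 0.136, and the neutrophil point of *Rac2* highest, at 2.83.

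AngII and steady state were compared within a class, where most differences of these genes were under 2-fold. In resident macrophages *Sod2* stood at 61.2 CPM (48.7 to 76.0) at steady state and 113 CPM (101.8 to 124.4) on AngII, a ratio of 1.84 (1.45 to 2.37). *Cyba* stood at 770 and 1381 CPM (1.79, 1.68 to 1.92), *Ncf4* at 85.1 and 138 CPM (1.63, 1.32 to 2.01), *Rac2* at 177 and 266 CPM (1.5, 1.3 to 1.74) and *Ncf1* at 205 and 247 CPM (1.21, 1.05 to 1.39). *Cybb* stood at 532 and 469 CPM (0.882, 0.807 to 0.964). For *Cat* (1, 0.778 to 1.3), *Nfe2l2* (1.09, 0.941 to 1.25) and *Sod1* (0.887, 0.742 to 1.06) the interval held 1. None of the 9 was past 2-fold, against 5.92% higher and 5.13% lower of 8057 genes. *Sod2* stayed above 1 in all alternatives (1.43 to 1.93), as did *Cyba* (1.70 to 1.94), while *Ncf4* was at 2.86 with thinning. Thinning put *Nfe2l2* at 0.637 and *Cat* at 0.681, both under the intervals above, and *Cybb* at 0.721. *Ncf1* was then at 1.3 and *Rac2* at 1.28. Markers of other cells differed between these resident macrophages too. The resident list summed to 10622 CPM at steady state and 5321 CPM on AngII, the 7 classical monocyte markers to 47.8 and 600 CPM (2 and 0 at 0) and the 4 reparative markers to 85.8 and 906 CPM (2 and 0 at 0). Their part in the result was not tested.

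Other macrophages had 84.9 CPM of *Nfe2l2* (62.6 to 112.6) at steady state and 181 CPM (169.7 to 191.9) on AngII, a ratio of 2.13 (1.59 to 2.90). It was the only 1 of 9 genes past 2-fold higher, against 12.4% of all genes, and none was lower, against 4.54%. *Ncf4* was just short of 2-fold, at 1.98 (1.47 to 2.72), with *Sod2* at 1.55 (1.15 to 2.12), *Cyba* at 1.14 (1.06 to 1.22) and *Sod1* at 0.625 (0.510 to 0.773). Thinned to 1000 UMIs, *Nfe2l2* was at 0.992, *Ncf4* at 0.985, *Sod2* at 0.623 and *Cyba* at 0.884, all turned in direction. *Sod1* was at 0.327 with thinning. Only 23 steady-state cells at 1000 UMIs each were left by thinning, so the steady-state side of these ratios rests on few UMIs. No interval was computed for them, so a turn in direction cannot be told from counting error. The 25 steady-state cells were mostly type-2 and the AngII cells mostly of other subsets, so subset and condition cannot be told apart here. Over all macrophages together none of the 9 was past 2-fold, against 6.68% higher and 6.26% lower, with *Sod2* (1.81, 1.51 to 2.19), *Ncf4* (1.81, 1.54 to 2.15) and *Cyba* (1.61, 1.54 to 1.69) the highest.

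In T cells 4 of 8 genes that could be compared were at least 2-fold higher on AngII, against 22% of 4705 genes, and none was lower, against 5.63% (27.7% in either direction). *Cybb* stood at 6.40 and 66.1 CPM (10.3, 2.78 to 86.6), *Cat* at 12.8 and 68.3 CPM (5.34, 2.02 to 20), *Ncf4* at 12.8 and 51.4 CPM (4.02, 1.5 to 15.2) and *Cyba* at 249 and 611 CPM (2.45, 1.94 to 3.13). The general macrophage markers in T cells, 41.6 and 666 CPM, moved in the same direction. Their part in the result was not tested. In T cells without a C1q UMI, whose depth was not compared, the ratios were 3.18 for *Cybb*, 5.29 for *Cat*, 2.38 for *Ncf4* and 1.85 for *Cyba*. No interval was computed for these. Their steady-state side rests on at most 2 *Cybb* UMIs and at most 4 UMIs each of *Cat* and *Ncf4*. *Rac2*, the oxidase gene that T cells hold most of relative to macrophages, stood at 726 and 633 CPM (0.873, 0.753 to 1.01).

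In B cells *Cybb* stood at 186 CPM at steady state and 388 CPM on AngII (2.09, 1.54 to 2.87), 1 of 7 genes that could be compared, against 4.82% of 2365 genes higher, and none was lower, against 4.48% (9.3% in either direction). *Ncf1* stood at 179 CPM (134.1 to 234.1) and 115 CPM (87.6 to 148.4), a ratio of 0.643 (0.436 to 0.95). Of the 199 AngII *Cybb* UMIs 35 came from 1 of 128 cells, and without cells holding markers of a second lineage the ratio was 1.59. The general macrophage markers in B cells summed to 959 CPM at steady state and 1326 CPM on AngII (1 and 0 of 9 at 0), and the 7 classical monocyte markers to 452 and 2282 CPM (4 and 0 at 0). Their part in the result was not tested.

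**Figure D4:**
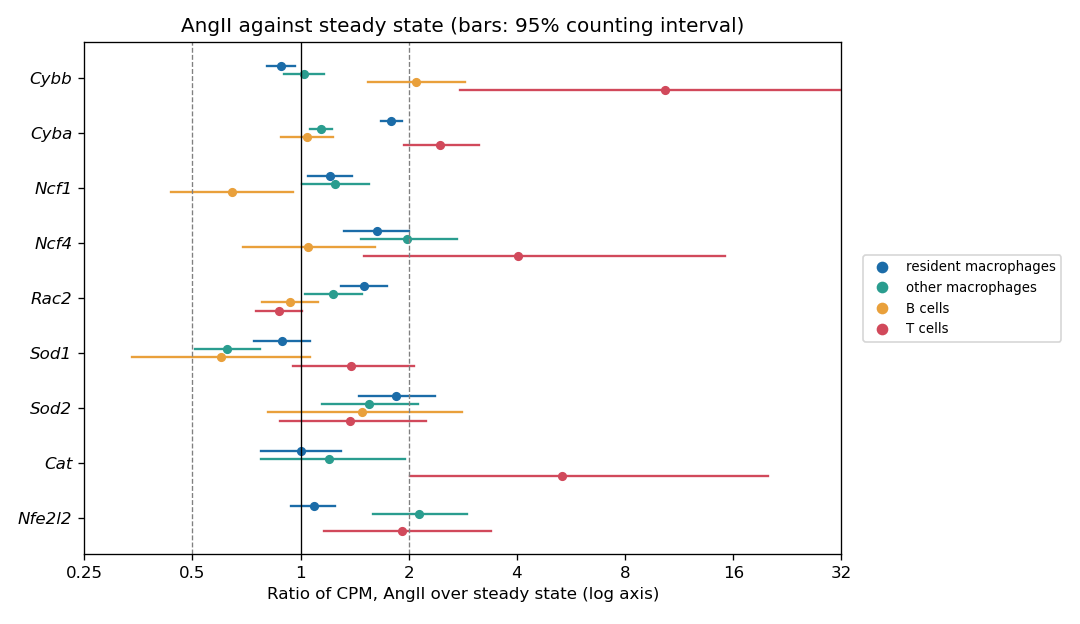
Ratio of CPM on AngII over steady state (log axis) for the 9 genes in resident macrophages, other macrophages, B cells and T cells, with 95% counting intervals as bars and dashed lines at 0.5 and 2; genes under 50 UMIs are left out. *Cyba* lies at 1.79 and *Sod2* at 1.84 in resident macrophages while *Cybb* lies at 0.882; the T cell bar of *Cybb* runs past the right edge, to 86.6.

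The wider lists give the surroundings of these values. Of the superoxide and peroxide removal genes (17 listed, 16 compared), 1 was at least 2-fold higher on AngII in resident and 4 in other macrophages, and none lower. Of the NRF2 targets and regulators (20 listed), 3 of 16 and 5 of 17 were higher and none lower. Of the other NADPH oxidase genes, 0 of 7 and 2 of 7 were higher. Among all genes, 5.92% were at least 2-fold higher in resident and 12.4% in other macrophages, and 5.13% and 4.54% at least 2-fold lower. The list medians in resident macrophages were 1.5 for removal genes, 1.54 for NRF2 genes and 1.20 for oxidase genes, against 1.01 for all genes.

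The cystine carrier subunit *Slc7a11*, a known NRF2 target, had 0 UMIs in steady-state and 91 in AngII resident macrophages (26.2 CPM), at least 11.7-fold higher. In other macrophages it had 1 and 352 UMIs, 1.77 and 61.5 CPM (34.8, 6.20 to 1377). *Gpx3*, a secreted glutathione peroxidase, stood at 8.21 and 27.6 CPM in resident macrophages (3.36, 1.80 to 6.96), and *Srxn1*, which repairs oxidised peroxiredoxins, at 8.21 and 24.7 CPM (3.01, 1.60 to 6.26). *Gpx3* had 1 and 75 UMIs in other macrophages (7.41, 1.29 to 296), and glutathione reductase (*Gsr*) stood at 15.9 and 85.9 CPM there (5.40, 2.82 to 11.9). Over all macrophages *Slc7a11* had 1 and 443 UMIs (91.7, 16.4 to 3630), *Gpx3* stood at 6.30 and 18.6 CPM (2.95, 1.65 to 5.82) and the peroxiredoxin *Prdx6* at 40.4 and 106 CPM (2.63, 2.08 to 3.36). In T cells thioredoxin (*Txn1*) had 125 and 626 CPM (5.02, 3.64 to 7.11), *Prdx4* 12.8 and 49.9 CPM (3.90, 1.46 to 14.7) and *Prdx1* 189 and 636 CPM (3.37, 2.59 to 4.47). In B cells *Prdx4* (2.68, 1.38 to 5.70) and *Gpx1* (2.08, 1.63 to 2.69) were the listed genes past 2-fold. *Nqo1*, often used as a readout of NRF2, had 0 UMIs at steady state and 11 on AngII over all filtered cells.

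Resident and other macrophages of the same library were compared next. At steady state *Cyba* stood at 770 CPM in resident and 1548 CPM in other macrophages (0.498, 0.454 to 0.545), and *Nfe2l2* at 196 and 84.9 CPM (2.30, 1.69 to 3.20). So 1 of 9 was at least 2-fold higher, against 13.4% of 5249 genes, and 1 lower, against 4.46% (17.9% in either direction). *Cat* was 1.67 times (1.04 to 2.80) and *Sod1* 0.696 times (0.545 to 0.892) the level of other macrophages, but 0.688 and 0.393 times when thinned to 1000 UMIs, so that *Cat* turned in direction. Thinning also moved *Cybb* from 1.17 to 3.74, *Sod2* from 0.736 to 0.491, *Ncf4* from 1.05 to 0.328 and *Ncf1* from 1.2 to 0.618. The thinned values rest on 23 other macrophages at 1000 UMIs each, so on few UMIs, and no interval was computed for them. Other macrophages were deeper (median 23303 against 10009 UMIs). Mast cell markers summed to 1295 CPM in them, with a median cell at 0, and 2.99 CPM in resident cells. Their part in the result was not tested. *Cyba* stayed past 2-fold in 7 of 10 alternatives (0.391 to 0.531) and *Nfe2l2* in 8 of 10 (1.71 to 2.84).

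On AngII none of the 9 was past 2-fold between resident and other macrophages, against 2.73% higher and 2.22% lower of 9335 genes (4.95% in either direction). *Cyba* stood at 1381 and 1758 CPM (0.786, 0.759 to 0.813), *Cat* at 65.0 and 46.8 CPM (1.39, 1.16 to 1.66) and *Nfe2l2* at 212 and 181 CPM (1.18, 1.07 to 1.29). *Cat* turned to 0.829 with thinning, and *Nfe2l2* to 0.96 with each cell given equal weight. The interval of *Cybb* held 1 (1.01, 0.947 to 1.07). Of the listed pathway genes, *Gsr* (2.49, 1.22 to 5.73), *Prdx4* (2.10, 1.41 to 3.22) and *Gclc* (2.03, 1.05 to 4.32) were past 2-fold higher in steady-state resident macrophages and *Glrx* lower (0.344, 0.213 to 0.549). On AngII *Gpx3* was higher (2.11, 1.54 to 2.89) and *Slc7a11* lower (0.426, 0.334 to 0.537).

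A macrophage with at least 1 UMI of the reporter was called Yfp+. At steady state 107 macrophages were Yfp+ and 35 Yfp- (medians of 11572 and 6673 UMIs), and on AngII 342 and 1800 (5676 and 1050 UMIs). *Cat* was the gene that differed most, with 104 UMIs in Yfp+ (65.7 CPM, 53.7 to 79.6) and 5 in Yfp- cells (15.5 CPM, 5.03 to 36.2) at steady state, a ratio of 4.24 (1.76 to 13.3). Of the 5, 3 came from 1 cell. It was the only 1 of 9 at least 2-fold higher, against 4.42% of 5249 genes, and none was lower, against 1.64% (6.06% in either direction). Within resident macrophages *Cat* stood at 71.9 CPM in Yfp+ and 12.7 CPM in Yfp- cells (85 and 2 UMIs), and within other macrophages at 47.4 and 18.2 CPM (19 and 3 UMIs). The ratio pooled within these subsets was 4. Thinned to 1000 UMIs, a *Cat* UMI was left in 7.48% of 107 Yfp+ and 0% of 33 Yfp- macrophages. Deeper cells are more often called Yfp+, and the part of depth in the result was not tested.

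On AngII *Cat* stood at 58.4 and 50.7 CPM (1.15, 0.958 to 1.38), and none of the 9 was past 2-fold, against 0.986% higher and 0.964% lower of 9335 genes (1.95% in either direction). Thinned as above, only 22.4% of the 107 steady-state Yfp+ macrophages kept a reporter UMI. The AngII Yfp- macrophages had a median of 1050 UMIs, so labelled cells can be missed among them. The part of such cells in the AngII ratios was not tested. *Cybb* (0.922, 0.866 to 0.981), *Cyba* (0.889, 0.860 to 0.920) and *Ncf4* (0.889, 0.796 to 0.993) were slightly lower in Yfp+ cells, though *Cybb* turned to 1.07 with thinning. The steady-state values of *Cybb*, 504 and 537 CPM, were within counting error (0.940, 0.796 to 1.11). Of the listed pathway genes, *Gsr* was higher (2.95, 1.09 to 11.2) and *G6pdx* lower (0.429, 0.269 to 0.699) in steady-state Yfp+ macrophages, *Gclc* stood at 2.40 with an interval that held 1 (0.974 to 7.68), and *Slc7a11* lower on AngII (0.411, 0.323 to 0.519).

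**Figure D5:**
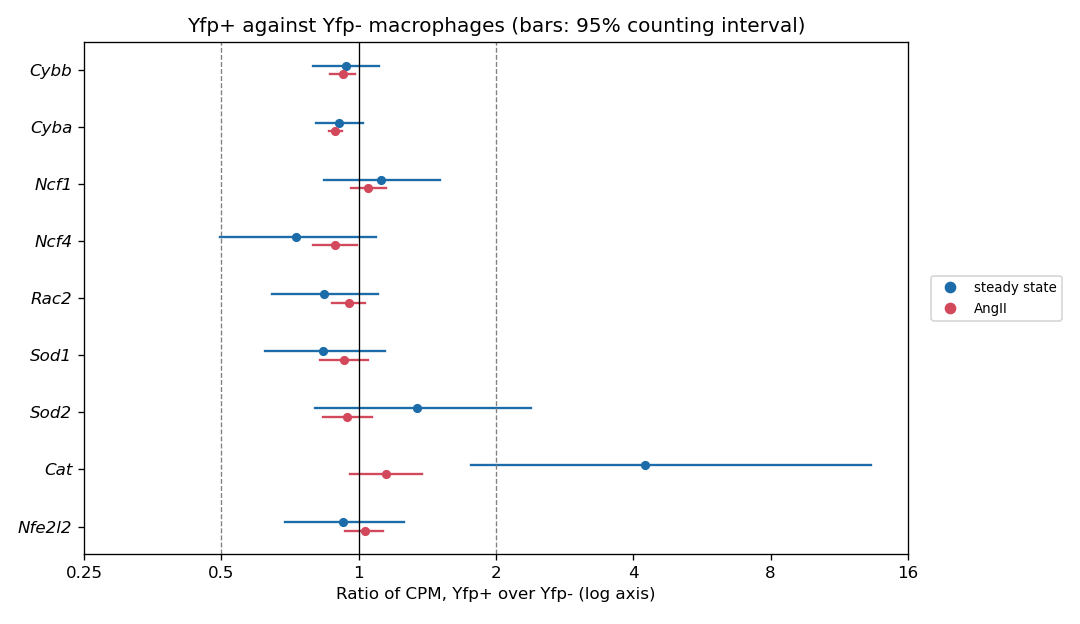
Ratio of CPM in Yfp+ over Yfp- macrophages (log axis) for the 9 genes at steady state (blue) and on AngII (red), with 95% counting intervals as bars and dashed lines at 0.5 and 2. Steady-state *Cat*, at 4.24, lies beyond the dashed lines and all AngII points lie between them.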

How the data were processed

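CD45+ adventitial cells were profiled with 10x 3' droplet libraries, 1 per condition. The authors called cells and counted UMIs with Cell Ranger 3.1.0 (GRCm38.p6, GENCODE M24, eYFP added). They deposited raw UMI counts per gene and barcode. Some results are not reported here. Gene positions here are from M21. The study's stated thresholds were applied to the deposited barcodes: 300 to 6500 genes, mitochondrial share up to 5%. This left 306 and 4198 cells, fewer than the 346 and 4419 that the study analysed. A marker counted for a cell where its UMIs exceeded 5% free RNA (Poisson tail under 0.01), and the class with the highest share of its markers, at least 2, was taken, with the 26 macrophage markers counted over 13. Ties and cells without a class were left out. Doublets were kept in the reported values. This rule was settled after marker levels were seen, and the genes and lists were chosen with earlier results of these data known. Without replicates no p-value was computed. Genes at 0 were taken at a floor of 3 UMIs. Thinned cells were drawn to 1000 UMIs without replacement. Of the wider lists, those genes past 2-fold with at least 50 UMIs are named, at most 3 highest and 3 lowest per comparison of subsets, conditions and Yfp groups; oxidase genes named against T cells, macrophages or in whole libraries, and *Nqo1*, were named after their values were seen. Counts were also simulated from class sums with counting error only and some genes changed 3-fold. Over the 4 comparisons simulated, 95.3% to 98.5% of changed and 0.167% to 2.33% of unchanged genes went past 2-fold. The simulation held no spread between cells or animals, no error of the gate and no free RNA, so it cannot speak to these. Computation used SciPy 1.17.1, NumPy 2.4.6 and pandas 2.3.3 under Python 3.11.15, with plots from Matplotlib 3.10.9.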

Additional observations from a re-analysis of the deposited data

Results flagged for a closer look

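Results are given here where a gene went in opposite directions under the same contrast, with both counting intervals off 1. The differences themselves were not tested. *Cat* was higher in macrophages than in T cells at steady state (4.47, 1.70 to 16.7, with 4 T cell UMIs) and lower on AngII (0.786, 0.629 to 0.992), but with cells thinned to 1000 UMIs the AngII ratio was 1.65, above 1 as at steady state. *Cybb* on AngII against steady state was at 0.882 (0.807 to 0.964) in resident macrophages, but at 2.09 (1.54 to 2.87) in B cells and 10.3 (2.78 to 86.6) in T cells. *Ncf1* in the same contrast was at 1.21 (1.05 to 1.39) in resident macrophages and 1.25 (1.01 to 1.55) in other macrophages, but at 0.643 (0.436 to 0.95) in B cells. With thinning, *Ncf1* in other macrophages was at 0.646, on the same side of 1 as in B cells. That value rests on 23 steady-state cells and has no interval.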

How the results depend on the processing

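No paired analysis was possible because each condition has 1 library. With other settings, 127 of 164 counts of genes past 2-fold stayed within 1.5 times the reported count, and of 306 recomputed ratios that were past 2-fold as reported, 274 stayed past it. The counts against T cells (7 and 5) stayed within 1.5 times in all. The cause of the following shifts was not tested. For resident against other steady-state macrophages (2), the stricter gate, classes by whole profile, the mean of per-cell CPM and leaving out the top cell each gave 1, and thinning 5. For AngII against steady state, thinning gave 1 for all and for resident macrophages (0 each), 2 for T cells (4) and 3 for B cells (1). In other macrophages (1), all barcodes and dropping cells with a second lineage gave 0, and cells with at least 1000 genes, the stricter gate, thinning and leaving out the top cell 2 each. In B cells dropping a second lineage and the top cell gave 0. For Yfp+ at steady state (1) thinning gave 0, with no *Cat* UMI left in Yfp- cells. Against AngII macrophages, classical monocytes (0) gave 2 without a second lineage and 1 with thinning or without the top cell, and neutrophils (3) gave 5 with at least 1000 genes and 1 by per-cell CPM. The cDC1 (3) gave 5 with thinning and 1 by per-cell CPM. The cDC2 (1) gave 0 with the stricter gate and without mitochondrial and ribosomal genes, 2 without a second lineage or the top cell, and 3 with thinning. B cells (3) gave 1 with all barcodes or per-cell CPM, and 5 with at least 1000 genes, whole profiles, no second lineage, free RNA taken off or no top cell. *Nfe2l2* in other macrophages, AngII against steady state, turned from 2.13 to 0.992 with thinning, which left 23 steady-state cells. With thinning, 4 of 8 genes in T cells and 8 of 9 in Yfp groups gave a value, the rest being at 0 in at least 1 group. T cells without a C1q UMI, chosen after seeing the data, gave counts within 1.5 times in all 3 comparisons.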
